A study of Mus musculus with 12 samples.

Results

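The genes described here had lower transcript levels after both 12 h and 24 h of BMP6 than in mock-treated mouse endothelial cells. A gene was chosen when its log ratio was at least 0.2 below that of the control array with the same replicate number in all 3 pairs at 12 h and in all 3 pairs at 24 h, that is, when each of the 6 paired differences was -0.2 or lower (1.15-fold). Of 8267 named genes, 21 met this threshold (0.254%), and 12 of them are members here. The other 9 carry names that the rule leaves out (the proteases Adamts1 and Adamts5, Cavin2, Gas1, Gcnt1, Lbp, Mgst1, Sema3c and Tgtp1). The 12 members are Casp1, Ccl9, Clca3a1, Gstm4, Mbl2, Ndnf, Ogn, Stmn1, Sulf1, Svil, Tgm2 and Tuba1c. In all 3 pairs 1.5% of all genes were at or below -0.2 at 12 h, and 0.532% at 24 h. Because the members were chosen by their 12 h and 24 h differences, these differences are given as a description and are not tested.

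The cells were MECs, an endothelial line from the mouse embryo, and fall into 4 groups of 3 arrays. One group was mock-treated (control, with no time given), and the others received BMP6 for 4 h, for 12 h and for 24 h. No controls are matched to each time, so BMP6 and time in culture cannot be told apart in any difference below. The design text describes the replicates as independent biological ones, and the dose of BMP6 is not given in the sources used here. RNA of the cells was hybridised in Cy5 against a universal mouse reference RNA in Cy3, so every level below is a log ratio of cells to reference on one probe, and levels of different genes cannot be set against each other. The base and sign of the deposited values are not stated. They were read as log2 of cells over reference, and with the opposite sign every "lower" below would be "higher".

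Arrays correlated with each other at 0.877 to 0.980. Of the 13 endothelial marker genes listed, 5 were measured, and all 5 lay below the reference in controls, from -1.62 for the junction protein Cdh5 to -0.39 for Esam, with Pecam1 at -1.42. A ratio to a mixed reference RNA does not show whether the cells express a marker, so these levels do not test the endothelial label. Of 8 blood markers 2 were measured, both below the reference. Of 9 fibroblast and mesenchymal markers 4 were measured, and 3 of these lay above the reference in controls (median 0.14), from -0.07 for Cdh11 to 0.63 for Prrx1. Of 8 epithelial markers 1 lay above it, and 2 of 3 measured smooth muscle markers did. The BMP-responsive inhibitors of differentiation Id1 and Id3 rose at 12 h, by 0.97 and 0.79 (adjusted p 0.00205 for each, limma with the replicate number as a block; adjusted p 0.533 and 0.359 without it), and passed the blocked test without each of the 12 arrays in turn. Id2 rose as well, by 1.27 at 12 h (adjusted p 0.00211, limma with the block) and 1.19 at 24 h (0.00869), but at 24 h it no longer passed without control replicate 1 (0.0602), control replicate 2 (0.0612), 24 h replicate 2 (0.0739) or 24 h replicate 3 (0.0720). In that fit 0.472% of all genes rose and 1.42% fell at 12 h, and 0.0726% rose and 0.0968% fell at 24 h. Without the block 0 genes passed at 12 h or 24 h (4.75% and 2.01% at an unadjusted p under 0.05), and 0.169% did at 4 h (7.43% unadjusted).

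BMP6 is a ligand of the TGF-beta superfamily that acts through type I and type II serine/threonine kinase receptors and SMAD1, SMAD5 and SMAD8/9, and in endothelium this pathway is known for shaping migration, sprouting and the response to inflammation. Receptor-activated SMADs both raise and lower transcription, and many of their early targets encode transcriptional regulators, so that genes can differ directly or later through those regulators. The 12 members do not form one pathway. By known role they comprise 4 secreted or matrix-modifying proteins, 3 proteins of innate immunity, 3 cytoskeletal proteins, a membrane protein of endothelial cells and a detoxifying enzyme.

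Each of the 12 members is measured by 1 probe, as are 77.9% of all genes on the array, so no second probe bears on any of them. Their mean differences from control ran from -0.72 to -0.32 at 12 h, with a median of -0.39, and from -0.67 to -0.23 at 24 h, with a median again of -0.39. Over all 8267 genes the medians were -0.002 and -0.005. In folds, the differences ran from 1.25-fold lower (Casp1) to 1.64-fold lower (Mbl2) at 12 h, and from 1.17-fold (Svil) to 1.59-fold (Tuba1c) at 24 h. Without regard to pairs, the 3 arrays at 12 h all lay below the 3 control arrays for 7 of the 12 members (4.14% of all genes), and those at 24 h for 6 (2.47%). For the rest the arrays of the groups overlapped, and the lower values show only within pairs.

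Some differences of group means, which set the pairs aside, rested much on 1 array. At 12 h and 24 h none changed sign when an array was left out. At 12 h, Tuba1c stood at -0.15 without control replicate 1, Casp1 at -0.19 and Stmn1 at -0.19 without 12 h replicate 2, Sulf1 at -0.19 without 12 h replicate 1 and at -0.21 without control replicate 3, and Ndnf at -0.37 without control replicate 3. At 24 h, Ndnf stood at -0.29 and Sulf1 at -0.22 without control replicate 3. Stmn1 stood at -0.16 and Svil at -0.13 without 24 h replicate 2, Svil at -0.15 without control replicate 1, and Stmn1 at -0.47 without control replicate 2. With the replicate number as a block these shifts were smaller. In that fit, at 12 h, Tuba1c stood at -0.29 without control replicate 1 and Ndnf at -0.50 without control replicate 3. Stmn1 stood at -0.32 without 12 h replicate 2, and Sulf1 at -0.32 without 12 h replicate 1. At 24 h, Stmn1 stood at -0.29 and Svil at -0.19 without 24 h replicate 2.

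**Figure D1:**
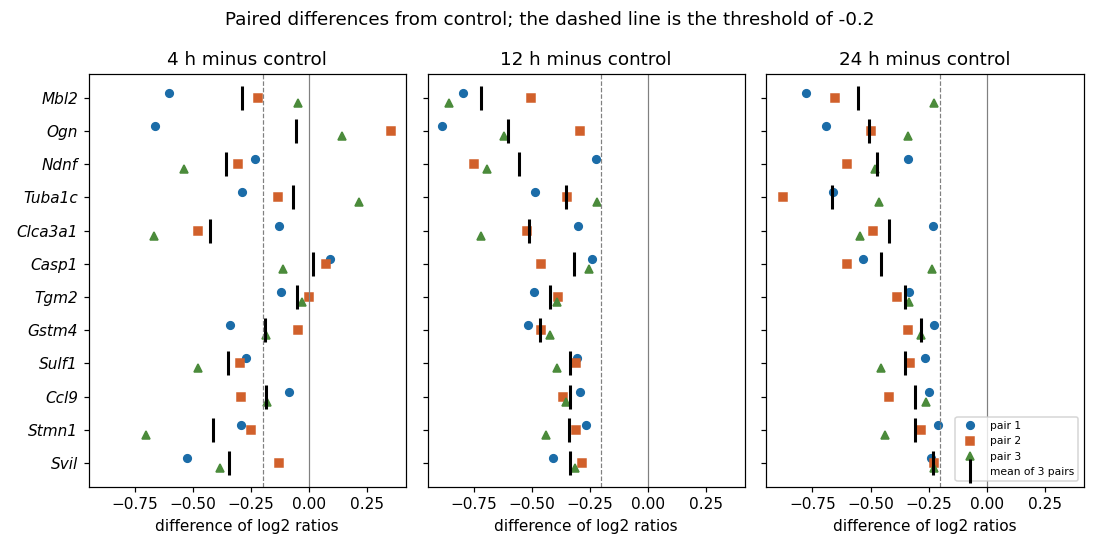
Differences of log2 ratios between treated and control arrays of the same replicate number for the 12 members (rows), at 4, 12 and 24 h (panels); points are the 3 pairs, black ticks their mean, and the dashed line the threshold of -0.2. All 6 points at 12 and 24 h lie left of the dashed line because the rule required it, while the 4 h points spread from -0.70 to 0.35.

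Among the secreted and matrix-modifying members, Ogn encodes osteoglycin, a small leucine-rich proteoglycan of the extracellular matrix. Its levels were -1.59, -2.73 and -2.44 in controls, -2.25, -2.37 and -2.30 at 4 h, -2.48, -3.02 and -3.06 at 12 h, and -2.28, -3.23 and -2.78 at 24 h. Control replicate 1 stood far above the other control arrays, and both late groups overlapped the controls. Within pairs Ogn was lower by -0.60 ± 0.296 at 12 h (SD, n = 3 pairs) and -0.51 ± 0.178 at 24 h. Without control replicate 1 the differences of group means were -0.27 and -0.18, and without 24 h replicate 2 that at 24 h was -0.28. With the replicate number as a block these 3 values were -0.42, -0.33 and -0.40. Ogn is also made by mesenchymal cells, and of the 4 fibroblast markers measured of 9 listed, 1 (Prrx1, at -0.50, adjusted p 0.0173, limma with the block) fell at 12 h and 0 passed at 24 h; the part of such cells in the result was not tested.

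Ndnf, a secreted factor known for supporting neurons and endothelial cells, had levels of -1.13, -0.69 and -0.35 in controls, -1.36, -0.99 and -0.89 at 4 h, -1.36, -1.43 and -1.05 at 12 h, and -1.47, -1.29 and -0.84 at 24 h. The groups overlapped, and the controls themselves spread widely, with replicate 1 lowest. Within pairs the difference was -0.56 ± 0.289 at 12 h and -0.47 ± 0.131 at 24 h.

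Sulf1 encodes a secreted sulfatase that removes sulfate groups from heparan sulfate chains and so alters growth factor binding at the cell surface. Its levels were -0.56, -0.18 and 0.01 in controls, -0.82, -0.48 and -0.46 at 4 h, -0.86, -0.50 and -0.38 at 12 h, and -0.82, -0.52 and -0.44 at 24 h. Replicate 1 was the lowest array in each of the 4 groups. The paired differences were nearly the same at the 3 times, at -0.35 ± 0.112, -0.34 ± 0.047 and -0.35 ± 0.097.

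Tgm2, transglutaminase 2, crosslinks extracellular matrix proteins and is abundant in endothelium. It had levels of 0.25, 0.34 and 0.45 in controls, 0.13, 0.34 and 0.42 at 4 h, -0.24, -0.04 and 0.06 at 12 h, and -0.09, -0.04 and 0.12 at 24 h. Both late groups lay wholly below the controls, whereas the 4 h arrays overlapped them. The paired differences were -0.42 ± 0.058 at 12 h and -0.35 ± 0.029 at 24 h, and Tgm2 was the single member left at a threshold of -0.3.

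Among the innate immunity members, Mbl2 encodes mannose-binding lectin, a plasma protein made mainly in liver that recognises microbial sugars and starts the lectin pathway of complement. It had the largest mean difference over both late times. Its levels were -0.78, -1.26 and -1.21 in controls, -1.39, -1.48 and -1.26 at 4 h, -1.58, -1.76 and -2.07 at 12 h, and -1.56, -1.91 and -1.44 at 24 h. The arrays of each treated group lay below all 3 controls, at 4 h only just (the highest at -1.260 and the lowest control at -1.259). Within pairs Mbl2 was lower by -0.72 ± 0.187 at 12 h and -0.55 ± 0.289 at 24 h. Its control ratio lay at percentile 4.23 of all genes, with Ogn at 0.726, Casp1 at 1.51, Ccl9 at 8.68 and Ndnf at 8.70. The other members lay at 25.6 (Svil) or higher. Spot intensities were not used, so whether the genes with low ratios were detected is unknown.

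Ccl9, a CC chemokine that attracts myeloid cells, had levels of -0.85, -0.68 and -0.65 in controls, -0.94, -0.97 and -0.83 at 4 h, -1.14, -1.04 and -0.998 at 12 h, and -1.10, -1.10 and -0.91 at 24 h. Both late groups lay below every control array, by -0.34 ± 0.040 and -0.31 ± 0.097 within pairs. Casp1 encodes caspase-1, the inflammasome protease that matures interleukin-1 beta and interleukin-18. Its levels were -1.73, -1.82 and -1.61 in controls and -1.64, -1.75 and -1.72 at 4 h, with the 2 groups interleaved. At 12 h they were -1.97, -2.29 and -1.86, and at 24 h -2.27, -2.43 and -1.84, with every late array below every control. The paired differences were -0.32 ± 0.124 at 12 h and -0.46 ± 0.195 at 24 h.

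Ccl9 is best known from myeloid cells, so the blood markers are given beside these genes. The leukocyte antigen Ptprc had a difference of -0.22 at 12 h and -0.42 at 24 h, and the myeloid lysozyme Lyz2 of 0.02 and -0.24 (adjusted p 0.384 for Ptprc and 0.564 for Lyz2 at 24 h, limma with the replicate number as a block; 0 of 2 passed at any time in either fit, and at 24 h both had an unadjusted p under 0.05 in both fits). The other 6 listed blood markers, among them Cd68 and Csf1r, were not analysed here, and the part of blood cells in these results was not tested. In RNA of a whole culture, fewer cells of a type and less RNA per cell cannot be told apart.

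Of the cytoskeletal members, Tuba1c encodes an alpha-tubulin, a building block of microtubules. Its levels were 0.47, -0.05 and -0.20 in controls, 0.18, -0.18 and 0.02 at 4 h, -0.02, -0.40 and -0.41 at 12 h, and -0.19, -0.92 and -0.66 at 24 h. Replicate 1 was the highest array of each group, and the late groups overlapped the controls. The paired difference was -0.35 ± 0.134 at 12 h and -0.67 ± 0.206 at 24 h, the largest of any member at 24 h. Alpha-tubulin genes are nearly identical in coding sequence, so the probe may also have taken up RNA of other tubulins.

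Stmn1 encodes stathmin, which binds tubulin dimers and promotes microtubule disassembly. It had levels of -0.14, -0.58 and -0.06 in controls, -0.44, -0.83 and -0.76 at 4 h, -0.41, -0.89 and -0.50 at 12 h, and -0.35, -0.86 and -0.49 at 24 h. Replicate 2 was lowest in all 4 groups, and the low control replicate 2 lay among the treated arrays, so that the groups overlapped. The paired differences were -0.34 ± 0.090 and -0.31 ± 0.117 at the late times. Svil encodes supervillin, a gelsolin-related protein that links actin and myosin II to the membrane. Levels of -0.14, -0.52 and -0.28 in controls stood beside -0.67, -0.65 and -0.66 at 4 h, -0.55, -0.80 and -0.59 at 12 h, and -0.38, -0.75 and -0.50 at 24 h. The arrays at 4 and 12 h lay below all controls, and those at 24 h overlapped them. The paired difference was -0.33 ± 0.065 at 12 h and -0.23 at 24 h, the smallest of any member, with all 3 pairs between -0.24 and -0.23.

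The remaining members act at the membrane and in detoxification. Clca3a1 encodes a calcium-activated chloride channel regulator that marks lymphatic and lung endothelium in mice. Its levels were -0.08, 0.17 and 0.27 in controls, -0.21, -0.31 and -0.39 at 4 h, -0.38, -0.35 and -0.44 at 12 h, and -0.31, -0.32 and -0.27 at 24 h. Every treated array lay below every control array. The paired differences were -0.51 ± 0.208 at 12 h and -0.42 ± 0.167 at 24 h. The 5 measured endothelial markers all lay below control at 12 h (median -0.09) and 24 h (median -0.11), and 3 did at 4 h. At the late times 0 passed in either fit. With the block, 0 at 12 h and 1 at 24 h had an unadjusted p under 0.05 in limma (15.4% and 7.94% of all genes). Their part in the members' values was not tested. Gstm4, a mu-class glutathione S-transferase that joins glutathione to reactive compounds, had levels of 1.20, 1.20 and 1.34 in controls, 0.86, 1.16 and 1.16 at 4 h, 0.68, 0.74 and 0.92 at 12 h, and 0.97, 0.86 and 1.06 at 24 h. All treated arrays were below all controls. Its difference was -0.47 ± 0.049 at 12 h and -0.28 ± 0.055 at 24 h.

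**Figure D2:**
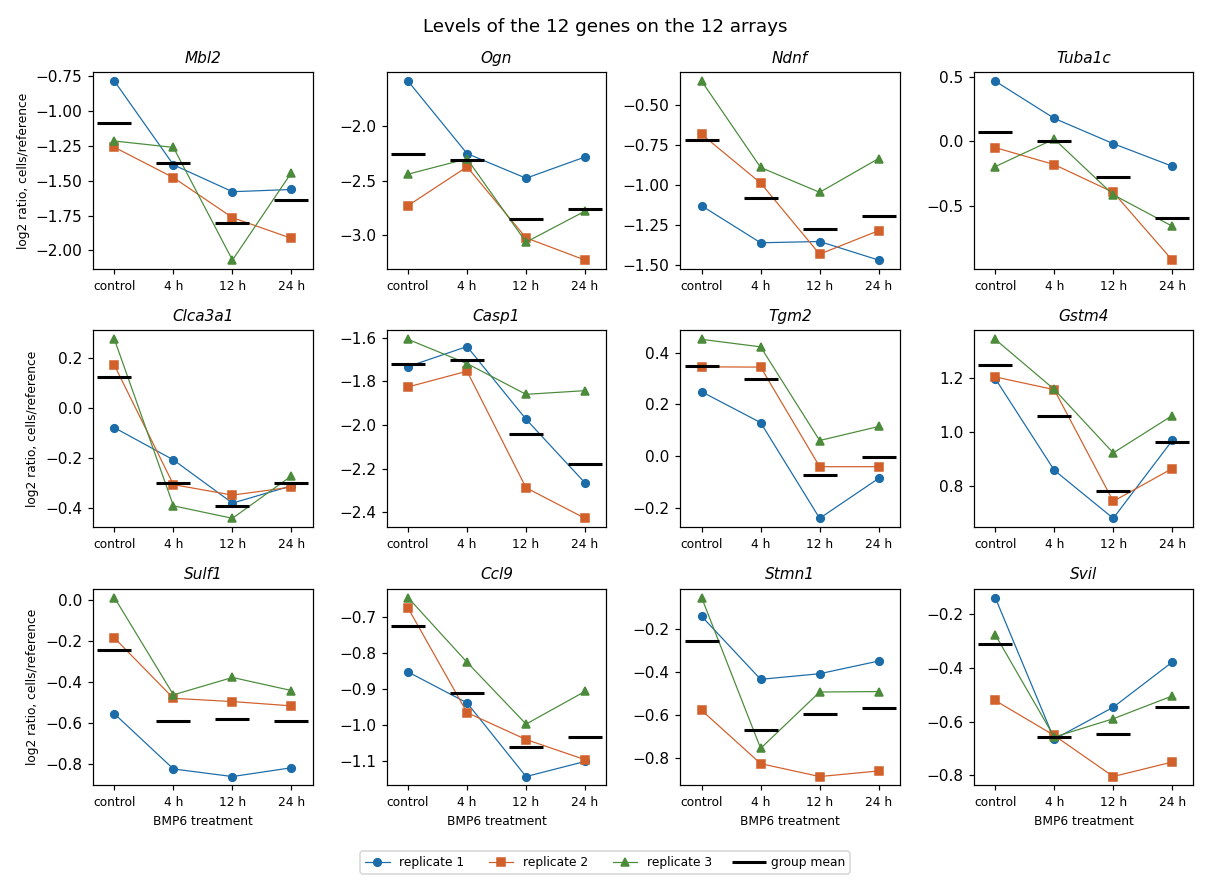
Levels of the 12 members, as log2 ratios of cells to reference RNA, on the 12 arrays (one panel per gene, each with its own vertical scale); coloured lines join arrays of one replicate number and black bars are group means of 3 arrays. For Tgm2 the 4 h arrays overlap the controls and the later ones lie below them, while for Clca3a1 all treated arrays lie between -0.44 and -0.21 and all controls at -0.08 or above.

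The 4 h arrays took no part in the choice of members, but the control arrays did, so the 4 h differences are not independent of it and are given without a test. At 4 h the members had a median difference of -0.24, against -0.01 over all genes, and 11 of 12 lay below 0. In 3 of 3 pairs 9 of 12 were lower than control (20.2% of all genes), and 3 of 12 (Ndnf, Sulf1 and Stmn1) met the threshold of -0.2 in every pair (1.65% of all genes). The 4 h arrays lay wholly below the controls for 4 members, Mbl2, Clca3a1, Gstm4 and Svil (6.33% of all genes). The fibroblast and mesenchymal markers were lower at 4 h too: all 4 measured lay below control, with a median of -0.31, and Prrx1 (-0.49) and Cdh11 (-0.45) fell in the blocked fit (adjusted p 0.00754 and 0.0251, limma; 0.195 and 0.704 without the block). At 24 h their median was -0.003. Their part in the members' values was not tested.

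By their means alone, the members differed in how much of the late difference was present at 4 h, which was not tested. In 5 of them the mean difference at 4 h already lay between -0.42 and -0.35: Clca3a1 (-0.42 ± 0.273), Stmn1 (-0.41 ± 0.250), Ndnf (-0.36 ± 0.161), Sulf1 (-0.35 ± 0.112) and Svil (-0.35 ± 0.201). In Mbl2, Gstm4 and Ccl9 it lay between, at -0.29 ± 0.284, -0.19 ± 0.146 and -0.19 ± 0.103. In 4 members the mean stood near 0: Tuba1c at -0.07 ± 0.258, Ogn at -0.06 ± 0.535, Tgm2 at -0.05 ± 0.062 and Casp1 at 0.02 ± 0.112. The pairs went both ways at 4 h for Ogn (from -0.66 to 0.35), Tuba1c (from -0.29 to 0.22) and Casp1 (from -0.11 to 0.09), whereas the Tgm2 pairs lay between -0.12 and -0.001. From 4 h to 12 h Tgm2 was lower by -0.37, -0.38 and -0.36 in the 3 pairs, the closest agreement between pairs among these 4.

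Single arrays also moved the 4 h differences of group means. Ndnf stood at -0.17 without control replicate 3, at -0.22 without 4 h replicate 1 and at -0.56 without control replicate 1. Sulf1 stood at -0.22 without control replicate 3 and at -0.23 without 4 h replicate 1, Mbl2 at -0.14 without control replicate 1, and Gstm4 at -0.09 without 4 h replicate 1. For the 4 members near 0 the sign itself depended on the array left out, with Ogn between -0.29 (without control replicate 2) and 0.28 (without control replicate 1), and Tuba1c between -0.20 (without control replicate 3) and 0.13 (without control replicate 1). With the replicate number as a block, Ndnf and Sulf1 each stood at -0.30 without control replicate 3. Mbl2 stood at -0.19 without control replicate 1, and Gstm4 at -0.12 without 4 h replicate 1. In that fit Tgm2 stayed below 0 whichever array was left out, while Ogn stood at 0.12 without control replicate 1.

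The differences between 24 h and 12 h are given as a description as well, because the rule bounded the values of both times. The members had a median of 0.07 (24 h minus 12 h), against -0.0003 over all genes, and 3 of 12 lay below 0. Over all genes 0 passed in limma without the replicate block and 9 (0.109%) with it, and at an unadjusted p under 0.05 there were 152 (1.84%) and 707 (8.55%).

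The lowest of these differences was that of Tuba1c, at -0.32, with -0.18, -0.53 and -0.25 in the pairs. Casp1 followed at -0.14, with -0.29, -0.14 and 0.02, then Sulf1 at -0.01 and Ccl9 at 0.03. The highest was that of Gstm4, at 0.18, with 0.29, 0.12 and 0.14 in the pairs, followed by Mbl2 at 0.17, Svil at 0.10 and Ogn at 0.09. Clca3a1 had a mean difference of 0.09, with 0.07, 0.03 and 0.17 in the pairs.

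As differences of group means, most of these values depended on single arrays, and an order among the members is not fixed by them. Tuba1c ranged from -0.52 (without 24 h replicate 1) to -0.15 (without 24 h replicate 2) and stood at -0.19 without 12 h replicate 1. Casp1 ranged from -0.31 (without 24 h replicate 3) to -0.01 (without 24 h replicate 2), Mbl2 from 0.03 (without 12 h replicate 3) to 0.30 (without 24 h replicate 2), and Svil from 0.02 (without 24 h replicate 1) to 0.21 (without 24 h replicate 2). The sign changed with the array left out for Ccl9, Ndnf, Ogn, Stmn1, Sulf1 and Tgm2. Gstm4 and Clca3a1 stayed between 0.13 and 0.25 and between 0.06 and 0.11. With the replicate number as a block, Tuba1c ranged from -0.38 to -0.22, Casp1 from -0.26 to -0.07 and Mbl2 from 0.002 to 0.28. Ogn, Stmn1 and Tgm2 then kept their sign, while Ccl9, Ndnf and Sulf1 still changed theirs.

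Relatives of the members by family or pathway were chosen after the members were known. Of 9 measured tubulins and stathmins 0 passed at 12 or 24 h in either fit, with differences from -0.10 to 0.22 at 12 h and -0.10 to 0.14 at 24 h. Tuba1b, the closest measured alpha-tubulin, stood at -0.10 and -0.01, and Stmn2, Stmn3 and Stmn4 between -0.03 and 0.06 at 12 h. At 4 h Tubb6 and Tubb2a-ps2 rose in the blocked fit, by 0.25 and 0.32 (adjusted p 0.0385 and 0.0225, limma). Among 11 genes of heparan sulfate, 0 passed at the late times, and Sulf2, the second sulfatase, stood at 0.03 and -0.003 against -0.34 and -0.35 for Sulf1. At 4 h the sulfotransferase Hs6st1 and the core protein Sdc1 rose in the blocked fit, by 0.31 and 0.22 (adjusted p 0.00994 and 0.0318, limma). The chemokine Ccl2 rose at 4 h as well, by 0.57 (adjusted p 0.0340), and stood at 0.02 at 12 h. At 4 h 2.27% of all genes rose in that fit and 3.75% fell, and 0 of these relatives passed without the block.

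The mu-class transferases Gstm5, Gstm6 and Gstm7 lay between 0.02 and 0.08 at 12 h, where Gstm4 stood at -0.47. The small leucine-rich proteoglycans Bgn, Prelp and Fmod lay between -0.03 and 0.08, where Ogn stood at -0.60. In the gelsolin superfamily Vill had a difference of -0.34 at 12 h (adjusted p 0.0539 with the block, limma), close to that of Svil, and Gsn of -0.22 (0.135). Of 6 genes around Casp1, the caspase-1 substrate Il18 stood at -0.32 at 12 h and -0.20 at 24 h (adjusted p 0.0916 and 0.564 with the block, limma), while the adaptor Pycard stood at 0.02 and 0.01. The lectin pathway protease Masp1 stood at -0.05 at both times. No relative passed at 12 or 24 h in either limma fit (6 and 2 of 40 had an unadjusted p under 0.05 with the block, where 15.4% and 7.94% of all genes did), and the differences between members and relatives were not tested.

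**Figure D3:**
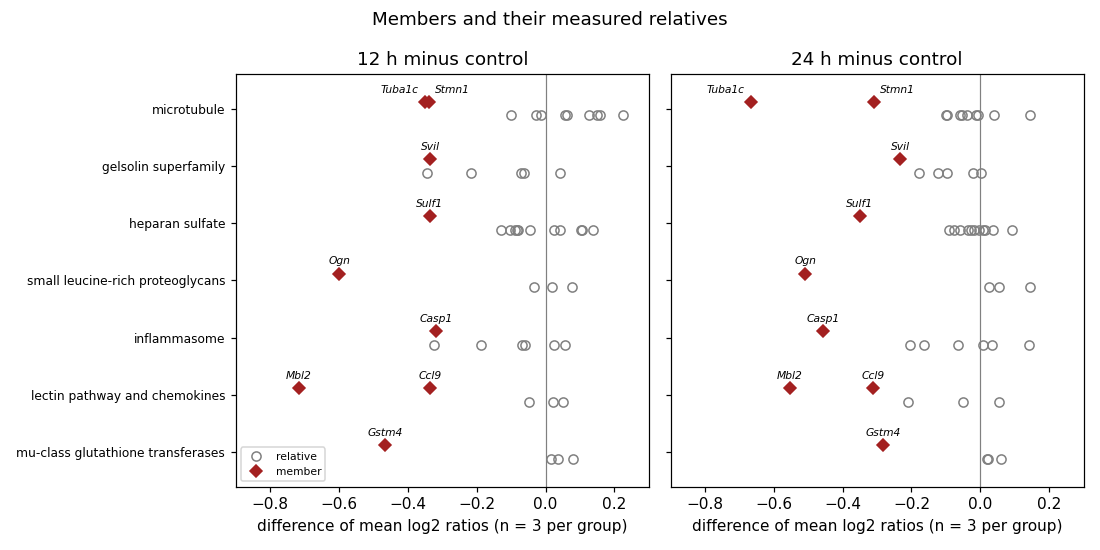
Differences from control at 12 h and 24 h (panels) for 9 members (red diamonds) and their measured relatives (open circles), one family or pathway per row; values are differences of mean log2 ratios over 3 arrays per group. Relatives lie mostly near 0, with Vill and Il18 at 12 h as low as the member of their row.

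Promoter windows were taken from RefSeq (build GRCm38.p6) for the 7 members listed there, Casp1, Ccl9, Clca3a1, Gstm4, Mbl2, Ogn and Tuba1c, from 250 bases before to 50 bases after the start of transcription. All 7 had a G+C content below the median of the windows of array genes, from 42.3% (Ogn) to 58.0% (Tuba1c) against 60.7%. They held 2 to 14 CpG dinucleotides against a median of 20, and 6 of the 7, all but Gstm4, held fewer than the lower quartile of 11. Low CpG content is typical of promoters of tissue-restricted genes.

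In all, 9 motifs were searched on both strands. The GC-rich SMAD1/5 motif GGCGCC was in none of the 7 members' windows and in 20.7% of the 8632 windows of array genes, and CAGACA, another SMAD motif, in none and in 15.7%. The palindromic SMAD motif GTCTAGAC (0.290%), the Snail-bound E-box CACCTG (17.8%), the D-box core TTANNTAA (3.74%) and the forkhead motif TGTTTAC (2.58%) were in none of the 7 either. The TATA box TATAAA was in the windows of Ccl9 and Ogn (7.44% of the windows of array genes), the E-box CACGTG in that of Casp1 (10.2%), and CCAAT in those of Clca3a1, Gstm4 and Tuba1c (37.0%). All these percentages are shares of windows, 8632 for 6696 array genes, whereas members were counted by gene. A match describes letters in this window and nothing more.

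The 250 bases before the start are shown for 4 members, because they hold the 3 kinds of match found and span the range of G+C content, 5′ to 3′ on the gene's strand, with matches to any of the searched motifs on either strand in capitals.
Ogn, chr13:49607765-49608014, plus strand: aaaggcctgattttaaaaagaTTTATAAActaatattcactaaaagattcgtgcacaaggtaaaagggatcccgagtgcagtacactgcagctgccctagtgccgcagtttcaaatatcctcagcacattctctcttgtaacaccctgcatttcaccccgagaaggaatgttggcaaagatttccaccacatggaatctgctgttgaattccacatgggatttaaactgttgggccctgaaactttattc
Ccl9, chr11:83578637-83578886, minus strand: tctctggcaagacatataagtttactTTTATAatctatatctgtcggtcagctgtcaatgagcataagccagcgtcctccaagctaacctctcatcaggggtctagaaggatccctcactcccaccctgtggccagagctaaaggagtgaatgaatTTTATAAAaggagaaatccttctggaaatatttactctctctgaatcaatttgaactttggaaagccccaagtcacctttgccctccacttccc
Casp1, chr9:5298267-5298516, plus strand: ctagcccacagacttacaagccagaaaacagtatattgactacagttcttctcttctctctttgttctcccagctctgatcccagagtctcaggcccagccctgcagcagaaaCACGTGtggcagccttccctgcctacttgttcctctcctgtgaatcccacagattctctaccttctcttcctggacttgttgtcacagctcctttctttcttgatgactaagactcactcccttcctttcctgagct
Tuba1c, chr15:99029641-99029890, plus strand: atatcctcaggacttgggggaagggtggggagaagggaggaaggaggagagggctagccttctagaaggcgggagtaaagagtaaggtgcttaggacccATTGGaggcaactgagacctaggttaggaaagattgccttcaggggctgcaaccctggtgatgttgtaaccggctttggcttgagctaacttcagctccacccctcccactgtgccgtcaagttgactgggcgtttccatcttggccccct
Counted from the start of transcription, the TATAAA letters of Ogn begin at position -227 and those of Ccl9 at -92, each overlapping a match on the other strand, and Ccl9 holds a further match on the other strand at -224. The E-box of Casp1 begins at -137, and the CCAAT match of Tuba1c, on the other strand, at -151.

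Near the threshold, the members just inside were Stmn1, whose least negative of 6 differences was -0.21, Tuba1c at -0.22 and Ndnf at -0.22. Just outside were Ptprc at -0.199, the aldo-keto reductase Akr1c14 at -0.192 and Zswim4 at -0.176. Akr1c14 had paired differences of -0.30, -0.70 and -0.66 at 12 h and -0.19, -0.34 and -0.47 at 24 h, larger on average than those of most members. With left-out names included, 12 of all 8267 genes lay at least 0.2 above control in all 6 differences, against 21 at least 0.2 below.

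Wider gene lists were also examined, and Ogn is the only member in any of them. Of 21 measured matrix glycoproteins and proteoglycans, which include Ogn, 0 passed at 12 or 24 h in either fit, with a median of -0.01 at 12 h (3 at 12 h and 6 at 24 h had an unadjusted p under 0.05 with the block, against 15.4% and 7.94% of all genes). Of 15 genes of glutathione and xenobiotic metabolism 1 fell at 12 h in the blocked fit, the retinal dehydrogenase Aldh1a1, by 0.61 on the log2 scale (adjusted p 0.00577, limma; 0.966 without the block), and it missed the threshold without 12 h replicate 2 (0.0564). Of 10 genes of complement and coagulation 2 fell at 12 h in the blocked fit, the complement protease C1s1 by 0.47 (adjusted p 0.0145, limma) and its inhibitor Serping1 by 0.32 (0.0434). Neither passed without the block (1 and 0.966). C1s1 no longer passed when control replicate 2 (0.0989), 12 h replicate 1 (0.0531) or 12 h replicate 2 (0.0635) was dropped, and Serping1 without 8 of the 12 arrays (adjusted p up to 0.188). 

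Of 16 interferon and antigen presentation genes 0 passed at any time in either fit, with medians of -0.05 at 12 h and -0.03 at 24 h (3 and 2 at an unadjusted p under 0.05 with the block). Likewise 0 passed at 12 or 24 h among 11 matrix proteases and inhibitors, 23 guidance, Notch and Wnt genes, 11 lysosome and autophagy genes and 8 clock genes (2, 2, 6 and 2 at 12 h at an unadjusted p under 0.05 in the blocked limma fit, against 15.4% of all genes). In the blocked fit at 12 h, 2 of 25 growth arrest genes (Pmp22 and Sesn1), 3 of 9 Armcx genes and neighbours (Armcx2, Armcx3 and Tceal9), 2 of 14 sterol and fatty acid genes (Abca1 and Fdft1) and 1 of 19 growth factor and chemokine genes (Met) fell, and 0 genes of these lists rose. Of 10 BMP target genes 3 rose and 0 fell at both late times in that fit. At 24 h, 0 genes of the lists other than the BMP targets passed in either fit.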

How the data were processed

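Two-colour Agilent arrays of mouse MECs (3 control arrays and 3 each at 4, 12 and 24 h of BMP6) were scanned and quantified with GenePix and normalized by a modified local quantiles method, per the labels' design text. The authors' deposited values are read here as log2 ratios. No source used here gives their base, their sign or a genome build. Spot intensities were not used, so detection is unknown; with 3 arrays per group the precision is limited by that number.

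Names came from a platform annotation of 11083 probe numbers, 10576 with 1 symbol (8267 genes, probes averaged). They rest on a rereading of the array grid inferred from the data: the first and second probe of a gene correlated at 0.471 over 1831 genes in that order and at 0.021 in the deposited one. For 10548 probes the gene identifier gave the current symbol.

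Values were fitted with limma 3.58.1 in R 4.3.3 over all 12 arrays (two-sided, Benjamini-Hochberg adjusted over 8267 genes, threshold 0.05), without a block and with the replicate number as a block, and the fits were tested on simulated data. Deviations of same-numbered arrays from their group means correlated at 0.446 to 0.756 (18 pairs) and those of other arrays at -0.561 to 0.037, so the numbers in the titles were taken to pair the arrays. Each treated group was set against the same 3 controls, so these comparisons are not independent. The members and gene lists were chosen with earlier results of these data known. All members were named, with the 3 genes on each side of the threshold, list genes with an adjusted p under 0.05, and marker genes; relatives of the members were added, and named, after the members were known. Alternatives were quantile normalization, median centring, other thresholds, group means in place of pairs, all probes, the study's equal-variance test and leaving out arrays. A test of the members between 24 h and 12 h was planned and is not reported, because the rule used the arrays of both times.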

Additional observations from a re-analysis of the deposited data

How the results depend on the processing

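The 12 members became 61 at a threshold of -0.1, 1 (Tgm2) at -0.3 and 105 on differences of group means without pairs. Leaving out 1 replicate number gave 29 to 58. Each of these settings other than -0.3 is looser than the rule, so it had to keep all 12 members. Quantile normalization kept 8 (without Casp1, Gstm4, Stmn1 and Svil), and median centring kept all 12 and added Akr1c14. With the replicate block the genes called rose from 14 to 498 at 4 h, from 0 to 156 at 12 h, from 0 to 14 at 24 h and from 0 to 9 for 24 h minus 12 h. Quantile normalization called 27 at 4 h, 1 at 12 h and 1 for 24 h minus 12 h, and the methods' equal-variance test called 0 at 4 h and 1 at 12 h. Leaving out 1 array gave 3 to 51 calls at 4 h (51 without 4 h replicate 1, 9 if 24 h replicate 2 was dropped, 4 if 4 h replicate 2 was, and 3 if control replicate 1, control replicate 2 or 4 h replicate 3 was) and 0 to 1 at 12 h (1 without control replicate 3, 12 h replicate 3 or 24 h replicate 2). The median of the members at 4 h lay between -0.306 (without control replicate 2) and -0.189, and that of 24 h minus 12 h between 0.0006667 (without 24 h replicate 3) and 0.112. No member's difference from control at 12 or 24 h changed sign in the 15 alternatives to the fit, in which arrays were left out without the block. Some of these could not change a sign, because the block, or leaving out an array outside the comparison, gives the same difference. At 4 h the differences of Casp1, Ogn, Tgm2 and Tuba1c changed sign in 2 each. For 24 h minus 12 h those of Stmn1 and Sulf1 did in 3 each, Ccl9 and Ogn in 2 each and Ndnf and Tgm2 in 1 each. The cause of these shifts was not tested.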
